A study of Mus musculus with 12 samples.

Results

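Glutathione transferases of the mu, alpha and theta classes were followed in mouse liver through 10 genes: Gstm2, Gstm3, Gstm4, Gstm5, Gstm6 and Gstm7 of the mu class, Gsta4 of the alpha class, and Gstt1, Gstt2 and Gstt3 of the theta class. The genes were listed by symbol, and every probe set annotated to exactly 1 of them was taken. This gave 12 of the 45101 probe sets on the array, or 10 of 18193 genes named by a probe set of 1 gene. The liver came from 12 male mice on the 129J background, 3 in each of 4 groups, with 1 Affymetrix array per animal. The groups were wild-type mice at 6 months (WT 6 months), Iqgap2-/- mice at 6 months (KO 6 months), wild-type mice at 24 months (WT 24 months) and Iqgap2-/- mice at 24 months (KO 24 months tumor). The knockout removes Iqgap2 from the whole body. RNA of the last group came from hepatocellular tumors, and that of the other groups from liver without tumors, so in this group age and tumor cannot be told apart. Values are log2 intensities, on which a difference of 1 is a doubling. Each is read within its own probe set, because probe sets differ in how brightly they report the same amount of RNA.

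Glutathione transferases join the tripeptide glutathione to electrophilic drugs, carcinogens and lipid peroxidation products, which are then exported and excreted as mercapturates. Liver is rich in these enzymes, and several mu-class genes are known targets of the transcription factor NRF2, which binds antioxidant response elements, and are highest in the hepatocytes around the central vein, where beta-catenin signaling is active. The mu-class genes lie next to each other on mouse chromosome 3 and are close copies of one another, so a probe set of one may also capture RNA of another.

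The arrays did not carry the deleted gene as their labels state. Iqgap2 read 8.07 to 8.68 by the brighter of 2 probe sets in the 6 arrays with a 6-month label of either genotype, and 11.92 to 12.30 in the 6 with a 24-month label. WT 6 months is thus the label of arrays at the knockout level, and KO 24 months tumor of arrays at the wild-type level. Groups are named below by label only. With both labels exchanged, every difference keeps its size, but the arrays labelled WT 6 months are read as KO tumors and those labelled KO 24 months tumor as wild-type livers at 6 months. Hepatocyte markers averaged 14.24 to 14.63 in all 12 arrays. In contrast, endothelial markers averaged 6.74 to 7.38 in the arrays labelled WT 6 months and 7.84 to 9.17 in the 9 others, and stellate cell markers 6.15 to 6.84 against 7.49 to 8.21. Replicate 3 of WT 24 months stood apart, with a Kupffer cell marker mean of 11.74 and correlations of 0.960 to 0.976 with the 11 other arrays. The 8 arrays that are neither this one nor labelled WT 6 months correlated at 0.980 to 0.994 with each other.

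RefSeq promoters (GRCm38.p6) were at hand for 8 of the 10 genes, in 13 windows of 250 bases before a transcription start. Entries for Gsta4 and Gstt2 were missing. The windows of Gstm2, Gstm3 and Gstm5 are shown because these 3 genes separated the groups most cleanly. Capitals mark a match to the TCF/LEF letters of beta-catenin target genes (TTCAAAG or ATCAAAG) or to the core of the antioxidant response element (TGACNNNGC), searched on both strands. The windows lie at chr3:107986421-107986670 on the minus strand for Gstm2, chr3:107969175-107969424 on the minus strand for Gstm3 and chr3:107895604-107895853 on the plus strand for Gstm5, and each is written 5′ to 3′ on its gene's strand.
Gstm2: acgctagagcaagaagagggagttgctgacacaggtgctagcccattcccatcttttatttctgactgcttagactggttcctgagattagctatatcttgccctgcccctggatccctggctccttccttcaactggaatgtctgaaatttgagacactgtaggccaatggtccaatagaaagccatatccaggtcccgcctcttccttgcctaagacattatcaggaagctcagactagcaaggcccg
Gstm3: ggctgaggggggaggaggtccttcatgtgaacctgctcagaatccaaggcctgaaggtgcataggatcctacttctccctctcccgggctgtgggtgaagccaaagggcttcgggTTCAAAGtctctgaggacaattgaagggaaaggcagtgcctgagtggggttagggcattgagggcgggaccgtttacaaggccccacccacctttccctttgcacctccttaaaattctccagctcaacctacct
Gstm5: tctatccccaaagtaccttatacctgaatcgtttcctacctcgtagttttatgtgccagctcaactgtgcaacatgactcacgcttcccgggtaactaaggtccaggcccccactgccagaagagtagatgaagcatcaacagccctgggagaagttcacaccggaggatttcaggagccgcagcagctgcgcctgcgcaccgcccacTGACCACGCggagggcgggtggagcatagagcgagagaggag
The Gstm3 window held TTCAAAG, 135 bases before the start, and the Gstm5 window held TGACCACGC, 42 bases before it. The Gstm2 window held neither motif. Among the other 10 windows, only 1 of those of Gstm7 held a match, to the antioxidant core. Over 32851 RefSeq promoters of the same length, 10.2% held the antioxidant core and 7.48% one of the TCF/LEF motifs, so such matches are common and describe letters rather than bound sites.

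Gstm2, Gstm3, Gstm4 and Gstm5 were brighter in each of the 3 arrays labelled WT 6 months than in any of the 9 other arrays, and they fell by 2.44-fold to 10.96-fold in every comparison with that group. Gsta4 was also above all 9 others there, by a narrow margin. In all, 6 of the 12 probe sets stood above the 9 other arrays in this way and none below them, where 5.88% of all 45037 probe sets tested stood above and 5.86% below. The 3 comparisons with the arrays labelled WT 6 months share those arrays, so their values are set side by side and do not support one another.

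**Figure D1:**
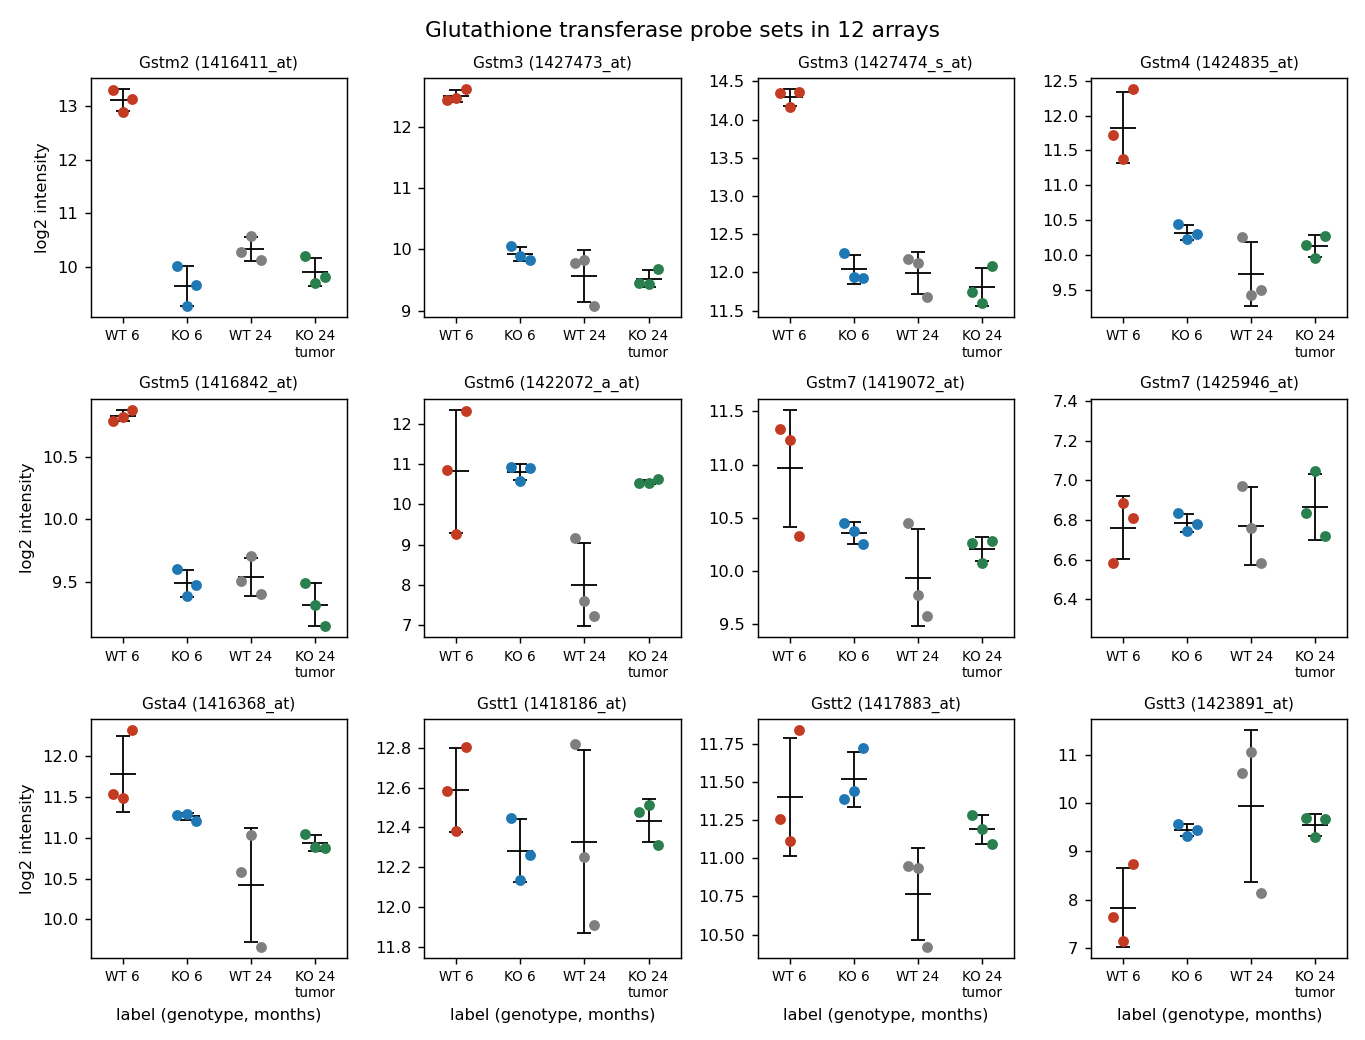
Log2 intensity of each of the 12 probe sets (vertical axis, scaled per panel) by label (horizontal axis, genotype and months). Points are the 3 arrays of a group in replicate order, and bars are mean ± SD. The Gstm2, Gstm3, Gstm4 and Gstm5 points of WT 6 months lie above all others, Gstm6 is lowest in WT 24 months (7.22 to 9.17), and Gstt3 is lowest in WT 6 months for 2 of its 3 arrays.

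Gstm2 had the largest fold of the 12 probe sets, reached in KO 6 months. This mu-class enzyme read 13.30, 12.89 and 13.12 in replicates 1 to 3 of WT 6 months, 10.02, 9.27 and 9.66 in KO 6 months, 10.28, 10.58 and 10.13 in WT 24 months, and 10.20, 9.71 and 9.82 in KO 24 months tumor. The lowest array labelled WT 6 months was 2.31 log2 units above the highest of the others. Among those, KO 24 months tumor overlapped both KO 6 months and WT 24 months, which did not overlap each other. The log2 difference from WT 6 months was -3.45 in KO 6 months (10.96-fold lower, SE 0.20, adjusted p = 1.33e-06 from limma), -2.77 in WT 24 months (6.84-fold lower, adjusted p = 8.08e-06) and -3.20 in KO 24 months tumor (9.16-fold lower, adjusted p = 2.49e-06).

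Gstm3 was measured by 2 probe sets, and both gave the same order. On 1427473_at it read 12.43, 12.47 and 12.61 in WT 6 months, 10.06, 9.90 and 9.82 in KO 6 months, 9.78, 9.83 and 9.08 in WT 24 months, and 9.45, 9.43 and 9.68 in KO 24 months tumor. The gap between the groups was 2.37, slightly more than for Gstm2. Differences from WT 6 months were -2.58 in KO 6 months (5.97-fold lower, SE 0.18, adjusted p = 4.40e-06), -2.94 in WT 24 months (7.68-fold lower, adjusted p = 1.87e-06) and -2.98 in KO 24 months tumor (7.90-fold lower, adjusted p = 1.66e-06). The other probe set, 1427474_s_at, carries the suffix of probes that match transcripts of more than 1 gene. It read 14.17 to 14.36 in WT 6 months and 11.60 to 12.25 in the other 9 arrays, and its differences were smaller, at -2.25, -2.30 and -2.48 in the same order (adjusted p = 7.17e-06, 7.03e-06 and 3.68e-06). Over the 12 arrays the probe sets correlated at r = 0.993, and over the 9 arrays without WT 6 months at 0.822, given here as a description.

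Gstm4 was lower by less, with more spread within WT 6 months. Its values were 11.72, 11.38 and 12.38 in WT 6 months, 10.44, 10.22 and 10.29 in KO 6 months, 10.25, 9.43 and 9.49 in WT 24 months, and 10.15, 9.95 and 10.27 in KO 24 months tumor. No array of another group reached the lowest of WT 6 months, which was 0.94 higher than the nearest. The difference was -1.51 in KO 6 months (SE 0.25, adjusted p = 0.00265), -2.10 in WT 24 months (adjusted p = 0.000346) and -1.70 in KO 24 months tumor (adjusted p = 0.00109).

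Gstm5, known in the mouse mainly from brain and testis, had the smallest fold of the 4 genes and the tightest replicates. It read 10.79, 10.82 and 10.88 in WT 6 months, 9.60, 9.39 and 9.48 in KO 6 months, 9.51, 9.71 and 9.41 in WT 24 months, and 9.50, 9.32 and 9.15 in KO 24 months tumor. The SD was 0.04 in WT 6 months (n = 3) and 0.11 to 0.17 in the other groups. Its differences from WT 6 months were -1.34 (2.53-fold lower, SE 0.11, adjusted p = 2.52e-05), -1.29 (2.44-fold lower, adjusted p = 3.82e-05) and -1.51 (2.84-fold lower, adjusted p = 9.73e-06) in KO 6 months, WT 24 months, then KO 24 months tumor.

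Gstm6 followed another pattern. Values in WT 6 months were scattered, at 10.87, 9.27 and 12.35, but they lay close together in KO 6 months (10.94, 10.58 and 10.90), as did those in KO 24 months tumor (10.52, 10.54 and 10.63). In WT 24 months the gene read 9.17, 7.60 and 7.22. Each of these 3 arrays was below every array of the other groups, the nearest being replicate 2 of WT 6 months. The difference of WT 24 months from WT 6 months was -2.83 (SE 0.64, adjusted p = 0.0172). Without replicate 2 of WT 24 months it was -2.63 (adjusted p = 0.0558), and without replicate 3, the array with the high Kupffer cell markers, -2.44 (adjusted p = 0.0486). KO 6 months and KO 24 months tumor differed from WT 6 months by -0.02 (95% confidence interval -1.42 to 1.38) and -0.26 (-1.67 to 1.14), intervals that leave room for more than a doubling either way.

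Gstm7 gave different results on its 2 probe sets. On 1419072_at it read 11.34, 11.23 and 10.33 in WT 6 months, 10.45, 10.37 and 10.25 in KO 6 months, 10.45, 9.78 and 9.58 in WT 24 months, and 10.26, 10.08 and 10.29 in KO 24 months tumor. Replicate 3 of WT 6 months lay among the other groups. WT 24 months differed by -1.03 (SE 0.26, adjusted p = 0.0300), a call that was lost without replicate 1 (-0.84, adjusted p = 0.106) or replicate 2 of WT 6 months (-0.90, adjusted p = 0.108) and without replicate 2 (-0.95, adjusted p = 0.0874) or replicate 3 of WT 24 months (-0.85, adjusted p = 0.0848). Differences of -0.61 in KO 6 months and -0.76 in KO 24 months tumor missed the threshold (adjusted p = 0.162 and 0.0777), but without replicate 3 of WT 6 months they were -0.92 and -1.07 (adjusted p = 0.0204 and 0.00833). Without replicate 1 of WT 24 months the fit across all arrays gave adjusted p = 0.0425 for KO 24 months tumor. The second probe set, 1425946_at, stayed between 6.58 and 7.04 in all 12 arrays, with differences from WT 6 months of 0.01 to 0.11 and intervals within -0.27 to 0.38.

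**Figure D2:**
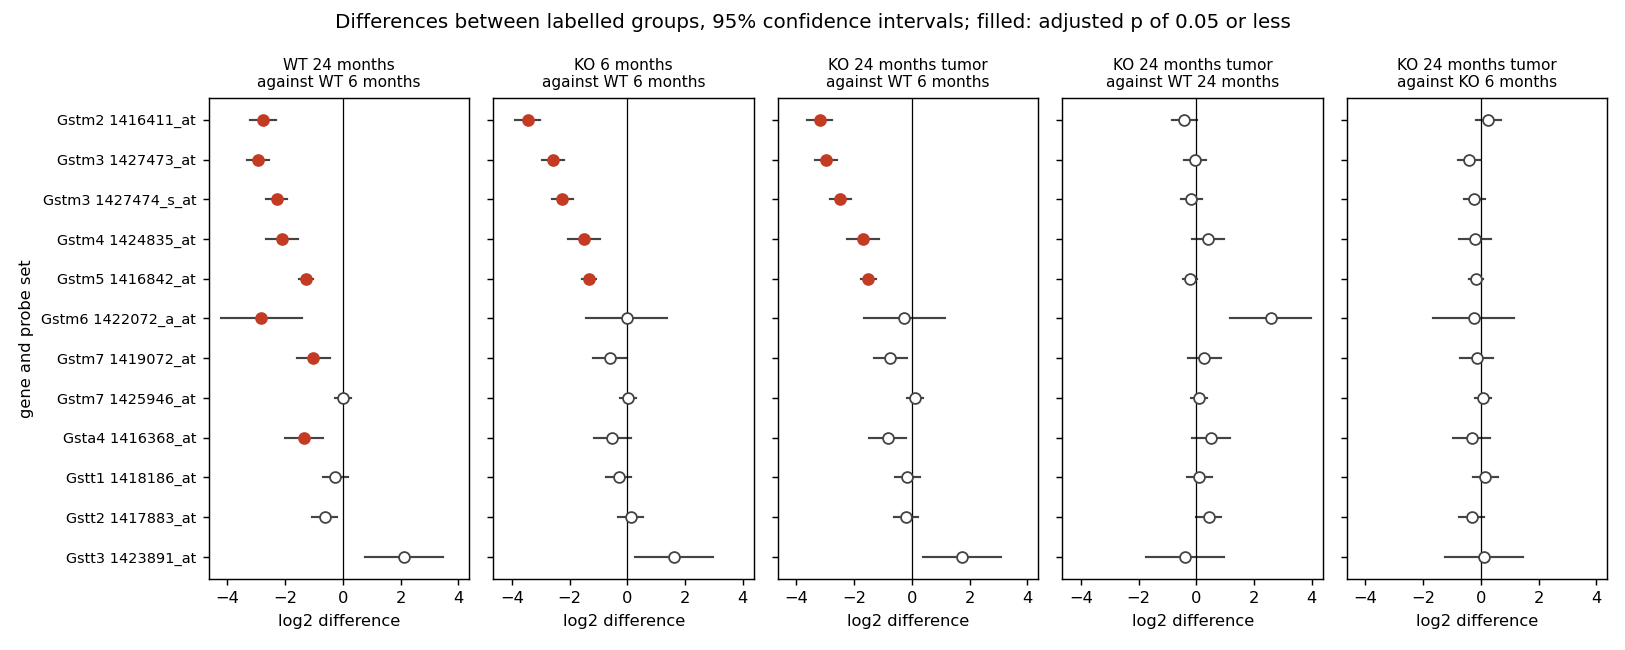
Log2 difference (horizontal axis) of each probe set (rows) in 5 comparisons, with 95% confidence intervals from limma. Filled points passed an adjusted p of 0.05, and the left 3 panels share the arrays labelled WT 6 months. The 5 probe sets of Gstm2, Gstm3, Gstm4 and Gstm5 are filled in each of those panels, at -1.29 to -3.45, and no point is filled in the right 2 panels.

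Gsta4, the alpha-class enzyme that conjugates the lipid peroxidation product 4-hydroxynonenal, read 11.54, 11.49 and 12.32 in WT 6 months and 11.28, 11.29 and 11.21 in KO 6 months. In WT 24 months it read 10.58, 11.03 and 9.66, and in KO 24 months tumor 11.05, 10.88 and 10.88. Every array of WT 6 months was above the others, the closest by 0.20, and replicate 3 of WT 24 months was the lowest. The difference of WT 24 months was -1.36 (2.56-fold lower, SE 0.30, adjusted p = 0.0145). It was -1.09 without replicate 3 of WT 6 months (adjusted p = 0.0506) and -0.98 without replicate 3 of WT 24 months (adjusted p = 0.0193). KO 6 months and KO 24 months tumor differed by -0.52 (adjusted p = 0.304) and -0.85 (adjusted p = 0.0842). The second of these passed without replicate 2 or replicate 3 of WT 24 months (adjusted p = 0.0427 and 0.0142), which enter only the shared estimate of the spread.

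Gstt1 and Gstt2 did not pass in any comparison. Gstt1, which acts on small halogenated hydrocarbons, lay between 11.91 and 12.82 in all 12 arrays, with group means of 12.59 ± 0.21 for WT 6 months, 12.43 ± 0.11 for KO 24 months tumor, 12.28 ± 0.16 for KO 6 months and 12.33 ± 0.46 for WT 24 months (SD, n = 3). The largest of its differences from WT 6 months was -0.31 in KO 6 months (95% confidence interval -0.74 to 0.13). Gstt2 read 11.26, 11.11 and 11.84 in WT 6 months, 11.39, 11.44 and 11.72 in KO 6 months, 10.95, 10.94 and 10.42 in WT 24 months, and 11.28, 11.19 and 11.09 in KO 24 months tumor. Here WT 24 months lay below the other 9 arrays. Its difference from WT 6 months was -0.63 (SE 0.19, adjusted p = 0.0695), and without replicate 2 of WT 6 months -0.78 (adjusted p = 0.0473).

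Gstt3 ran the other way, with a mean in WT 6 months more than 1 log2 unit below those of all other groups. Its values were 7.63, 7.14 and 8.73 there, 9.57, 9.32 and 9.44 in KO 6 months, 10.64, 11.06 and 8.14 in WT 24 months, and 9.70, 9.30 and 9.67 in KO 24 months tumor. All arrays of the knockout labels were above those of WT 6 months, as were 2 of the 3 of WT 24 months, while replicate 3 lay inside the range of WT 6 months. Differences were 1.61 in KO 6 months (SE 0.62, adjusted p = 0.119), 2.11 in WT 24 months (adjusted p = 0.0571) and 1.72 in KO 24 months tumor (adjusted p = 0.0890), so none passed in the fit across all arrays. When replicate 3 of WT 24 months was left out, the same comparisons gave 1.61, 3.02 and 1.72 with adjusted p = 0.00608, 0.000346 and 0.00360. The WT 24 months difference was 2.56 without replicate 3 of WT 6 months (adjusted p = 0.0382). The part of the Kupffer cell signal of that WT 24 months array in its low Gstt3 value was not tested.

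Counted over probe sets, 8 of 12 fell and none rose in WT 24 months against WT 6 months, where 4.96% of all probe sets fell and 3.8% rose. The 8 belong to Gstm2, Gstm3, Gstm4, Gstm5, Gstm6, Gstm7 and Gsta4. In KO 6 months 5 of 12 fell and none rose, against 6.03% and 6.08% of all, and in KO 24 months tumor 5 of 12 fell and none rose, against 6.95% and 7.19%. These 5 were the probe sets of Gstm2, Gstm3, Gstm4 and Gstm5 in both. The median difference over the 12 was -1.32, -0.56 and -0.80 in WT 24 months, in KO 6 months and among KO 24 months tumor arrays, beside 0.00, 0.04 and 0.05 over all probe sets. With a fold of 3 added to the call rule, the counts were 5, 3 and 4, against 0.884%, 1.03% and 1.24% of all probe sets lower by that rule. Endothelial and stellate cell markers moved the other way in these comparisons: 7 of 8 endothelial markers rose in WT 24 months and KO 6 months and 6 of 8 in KO 24 months tumor, and 5 of 8 stellate cell markers rose in each. Their part in the transferase differences was not tested. In RNA of whole tissue, fewer cells of a type and less RNA per cell cannot be told apart.

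KO 24 months tumor was also compared with WT 24 months and with KO 6 months. None of the 12 probe sets passed in KO 24 months tumor against WT 24 months, where 0.238% of all probe sets did. The smallest adjusted p was that of Gstm6, at 2.57 higher in the tumor-labelled arrays (95% confidence interval 1.17 to 3.97, adjusted p = 0.121). Gstm6 and Gstt2 were higher with no overlap between the groups, 2 of 12 probe sets, where 13% of all probe sets were. Without replicate 1 of WT 24 months Gstm6 was 3.16 higher (adjusted p = 0.0310), and SAM called Gstm6 with a q-value of 0.0429. In KO 24 months tumor against KO 6 months none passed either, where 0.02% of all did. Gstm3 on 1427473_at, Gsta4 and Gstt2 were lower with no overlap between these groups, 3 of 12 probe sets, where 7.36% of all were. None was higher in this way, where 7.28% of all were. The smallest adjusted p was that of Gstm3 on 1427473_at, at -0.41 (95% confidence interval -0.79 to -0.02, adjusted p = 0.803). SAM called none in that comparison. For Gstm2 the intervals of these comparisons were -0.86 to 0.02 and -0.18 to 0.70, and for Gstm5 -0.47 to 0.03 and -0.42 to 0.08, so a change of 2-fold in these genes lies outside them.

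Whether the change by labelled age differed between the labelled genotypes was tested as an interaction. The change from 6 to 24 months in the KO labels exceeded that in the WT labels by 3.03 for Gstm2 (SE 0.28, adjusted p = 0.000147), 2.54 and 2.07 for the probe sets of Gstm3 (adjusted p = 0.000202 and 0.000514), 1.91 for Gstm4 (adjusted p = 0.0140) and 1.12 for Gstm5 (adjusted p = 0.00295). This made 5 of 12 called in that direction, where 1.73% of all probe sets were. The interaction takes in the difference of WT 24 months from WT 6 months with its sign turned, so it adds no separate support. For Gstm2 that difference was -2.77, while KO 24 months tumor differed from KO 6 months by 0.26. For Gstm5 the 2 values were -1.29 and -0.17. Gstm6 gave 2.59 (adjusted p = 0.184) and Gstt3 missed the threshold on the other side of 0 (95% confidence interval -3.91 to -0.09, adjusted p = 0.313). Without replicate 2 of WT 6 months Gstm6 gave 3.37 (adjusted p = 0.0299), and without replicate 3 of WT 24 months Gstt3 gave -2.90 (adjusted p = 0.00584). Exchanging the labels that Iqgap2 goes against leaves each of these values as it is.

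Along chromosome 3 the mu-class genes of the RefSeq annotation follow each other in the order Gstm5, Gstm7, Gstm6, Gstm3, Gstm2, Gstm1 and Gstm4. The genes lower in all 3 comparisons with WT 6 months were Gstm5 at one end and Gstm3, Gstm2, Gstm1 and Gstm4 at the other, with Gstm7 and Gstm6 between them. Gstm1, the main mu-class enzyme of mouse liver, is outside the 10 genes but shares much of their sequence. All 4 of its probe sets were lower in each of the 3 comparisons, by -0.50 to -1.01, less than any of the 5 probe sets of Gstm2 to Gstm5. Over the 9 arrays without WT 6 months, Gstm2 correlated with Gstm3 at r = -0.15 on 1427473_at and 0.25 on 1427474_s_at, against 0.945 and 0.967 over all 12. Since the 12 arrays include a group that stands apart, the latter values describe that group. The theta-class genes also lie together, on chromosome 10 in the order Gstt3, Gstt1, Gstt4 and Gstt2. The neighbors Gstt3 and Gstt1 differed from WT 6 months in opposite directions, though neither passed there. They correlated at r = 0.116 over all 12 arrays and at 0.595 over the 9 without WT 6 months.

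**Figure D3:**
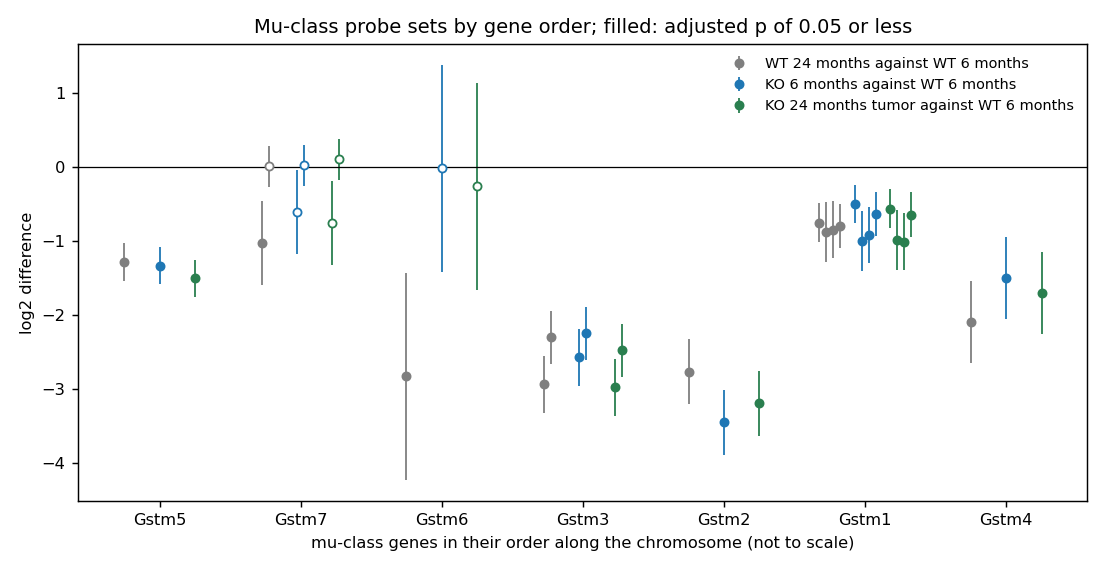
Log2 difference (vertical axis) of every mu-class probe set in the 3 comparisons with the arrays labelled WT 6 months, with genes in their order along the chromosome and not to scale (horizontal axis). Bars are 95% confidence intervals, and filled points passed an adjusted p of 0.05. Gstm2 reaches -3.45, Gstm1 stays between -0.50 and -1.01, and Gstm6 is filled in WT 24 months alone (-2.83).

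The genes most like the brightest member of each class were sought among 18183 others by Pearson's r over the 12 arrays. For Gstm3 (1427474_s_at) these were Nkd1 (r = 0.990), Maoa (0.986) and Mirg (0.983), and over the 9 arrays without WT 6 months r was 0.886, 0.674 and 0.497. Nkd1 is a feedback inhibitor and target of Wnt signaling. Gsta4 was most like Colgalt2 (0.931), Txnrd2 (0.931) and Nsfl1c (0.929), with 0.884, 0.977 and 0.876 over the 9 arrays. For Gstt1 they were Pon1 (0.874), Tubb2a-ps2 (0.862) and Cbln2 (0.858).

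The remaining glutathione genes were counted by list, 1 probe set per gene. Their counts are read beside the shares over all probe sets, which were 3.8% higher and 4.96% lower in WT 24 months, 6.08% and 6.03% in KO 6 months, and 7.19% and 6.95% in KO 24 months tumor. In a list of 16 or 17 genes, 1 call in a direction is thus close to those shares. Among 17 other glutathione transferases, 2 rose and 2 fell in WT 24 months against WT 6 months. Gsto1, of the omega class, rose by 1.38 (SE 0.16, adjusted p = 0.000324) and Gstk1, of the mitochondrial kappa class, by 0.75 (adjusted p = 0.0147), while Gstm1 (-0.75, adjusted p = 0.00218) and Gstcd (-0.65, adjusted p = 0.00439) fell. In KO 6 months 3 rose and 1 fell, and in KO 24 months tumor 2 rose and 2 fell.

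Of 16 genes of glutathione synthesis and breakdown, 2 rose and 2 fell in WT 24 months, 3 rose and 1 fell in KO 6 months, and 4 rose and 1 fell in KO 24 months tumor. Cth and Cbs, the enzymes that make cysteine from homocysteine, rose by 1.72 (adjusted p = 0.000139) and 0.84 (adjusted p = 0.0176) in WT 24 months. Ggct, which splits gamma-glutamyl dipeptides, fell by 1.24 (adjusted p = 0.00110). Among 14 redox enzymes of the glutathione system, none rose, and 5, 4 and 5 fell in WT 24 months, in KO 6 months and among KO 24 months tumor arrays. Gpx4, which reduces lipid hydroperoxides, fell by 1.03 (adjusted p = 8.29e-05), Pgd of the NADPH-making pentose phosphate pathway by 1.14 (adjusted p = 0.000128) and Gpx7 by 1.48 (adjusted p = 0.00312) in WT 24 months.

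Of 9 genes of conjugate export and mercapturate formation, 3 fell in each of the 3 comparisons, and 1, 2 and 2 rose in WT 24 months, in KO 6 months and among KO 24 months tumor arrays. Nat8, the N-acetyltransferase of the last mercapturate step, fell by 2.85 (SE 0.33, adjusted p = 0.000260) in WT 24 months. The efflux pump Abcc4 fell in all 3, with differences of -3.68 in WT 24 months (SE 0.66, adjusted p = 0.00463), -5.49 in KO 6 months (adjusted p = 0.000304) and -5.63 in KO 24 months tumor (adjusted p = 0.000238). Acy1, an aminoacylase, rose by 0.90 (adjusted p = 0.00805). This was the only list with calls in KO 24 months tumor against WT 24 months, where 2 of 9 rose, beside 0.122% of all probe sets. They were the pump Abcg2 and the mercapturate deacylase Acy3, named after their values were seen.

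NRF2 targets outside the glutathione genes fell in 7, 6 and 5 of 13 cases in WT 24 months, in KO 6 months and among KO 24 months tumor arrays, and none rose. Srxn1, which repairs peroxiredoxins, fell by 2.29 (adjusted p = 3.82e-05), Ugdh by 1.52 (adjusted p = 0.000934) and Aox1 by 1.33 (adjusted p = 0.00142) in WT 24 months. Of 16 beta-catenin targets of pericentral hepatocytes, 14 fell in each comparison. The 3 comparisons share the arrays labelled WT 6 months, and the lists were chosen with earlier results of these data known. In WT 24 months the differences were -5.17 for Nkd1 (adjusted p = 2.50e-08), -3.69 for the ammonium transporter Rhbg (adjusted p = 2.47e-06) and -3.72 for the R-spondin receptor Lgr5 (adjusted p = 4.14e-06). Among 9 xenobiotic receptors and their targets the calls went both ways, with 2 higher and 1 lower in WT 24 months, 2 higher and 3 lower in KO 6 months, and 3 higher and 2 lower in KO 24 months tumor. In WT 24 months Cyp2b10, the classical target of the receptor CAR, rose by 3.00 (adjusted p = 8.49e-07), Ces2a rose by 1.39 (adjusted p = 0.0109), and the aryl hydrocarbon receptor Ahr fell by 1.70 (adjusted p = 0.000934). Median differences of the lists in WT 24 months were -0.04 for the other transferases, 0.09 for synthesis and breakdown, -0.22 for redox enzymes, -0.04 for export and mercapturates, -0.89 for NRF2 targets, -2.05 for beta-catenin targets and 0.15 for xenobiotic genes, beside 0.00 over all probe sets.

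**Figure D4:**
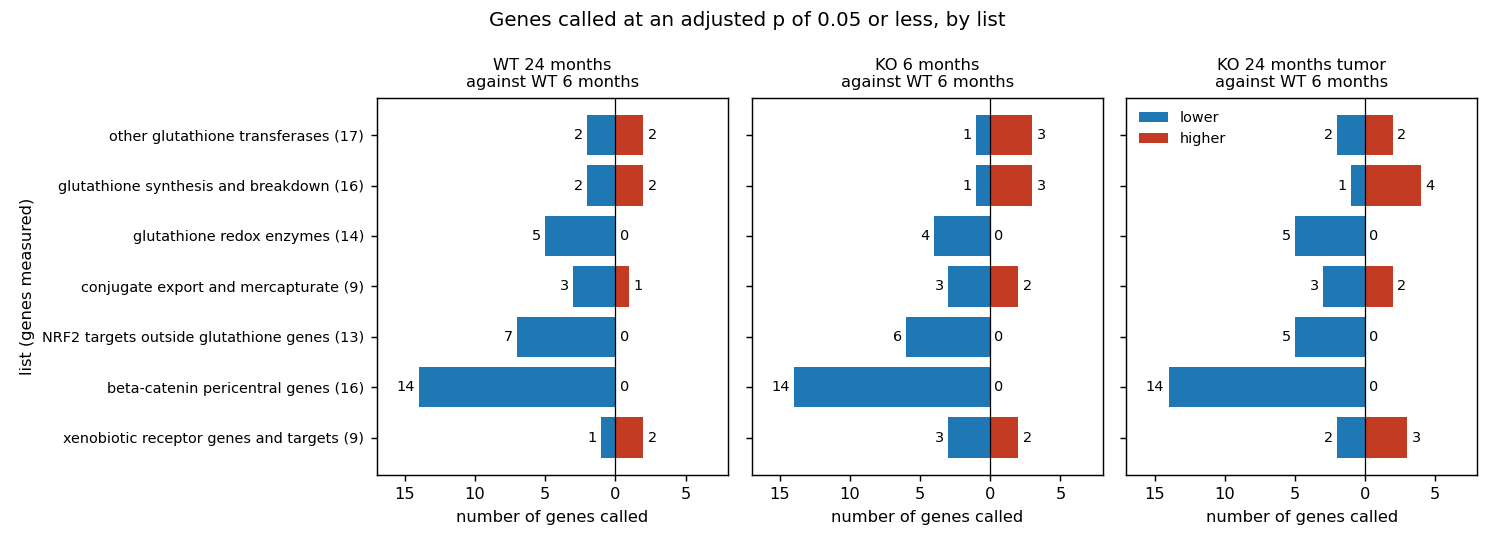
Number of genes called at an adjusted p of 0.05 (horizontal axis, lower to the left and higher to the right) in 7 lists (rows, with the number of genes measured), in the 3 comparisons with the arrays labelled WT 6 months. All 3 panels share those arrays. Redox enzymes, NRF2 targets and beta-catenin targets have bars to the left alone, with 14 of 16 beta-catenin targets lower in each panel.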

How the data were processed

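RNA of 12 livers was read on 12 Affymetrix mouse genome arrays. Per the labels and methods, the authors made the deposited log2 intensities by RMA in R with simpleaffy (version not given in the sources used here), which corrects background, equalizes the arrays' quantiles and summarizes each probe set. Such scaling hides a shift shared by most genes. Array medians were 5.41 to 5.45. No other filter was found.

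Groups were taken from the labels. The 64 control probe sets were left out. A linear model of the 4 group means was fitted with limma 3.58.1 (R 4.3.3) to the other 45037, and p-values were adjusted over them all by Benjamini-Hochberg. Calls used an adjusted p of 0.05 or less. Exact permutation of 3 arrays against 3 cannot go below p = 0.1. Labels name separate animals. Scripts were tested on simulated data. Of 104 listed genes outside the 10, 94 were measured, by their brightest probe set. Up to 3 per list are named, those with the smallest adjusted p in WT 24 months against WT 6 months. Gstk1, the remaining called gene of its list in that comparison, is named as well. Other named genes are the 10 members, the 3 genes most like the brightest member of each class, and Iqgap2. Abcg2 and Acy3 were named after their values were seen, as was the comparison of WT 6 months with the 9 other arrays. Members and lists were chosen with earlier results of these data known. Alternatives were SAM (the test named in the methods, written out over all 20 splits), a fit of the 2 groups compared, the replicate block, a trended and robust variance prior, housekeeping centering, gene-level and bright probe sets, a fold of 3, and leaving out each array. Figures were drawn with matplotlib 3.10.9.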

Additional observations from a re-analysis of the deposited data

Results flagged for a closer look

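The change by labelled age differed between the labelled genotypes by the interaction test for 5 probe sets of 4 mu-class genes. The log2 value of the interaction was 3.03 for Gstm2, 2.54 for Gstm3 on 1427473_at, 2.07 for Gstm3 on 1427474_s_at, 1.91 for Gstm4 and 1.12 for Gstm5. No group was large enough for a test of single stray arrays.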

How the results depend on the processing

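Over all alternatives, 1415 values of single probe sets kept their side of the threshold, 29 came to pass it and 20 no longer did. None of the values that passed in either fit reversed direction. Direction was not compared for values that passed in neither, and some of these changed sign. Gstt1 in KO 24 months tumor against WT 24 months went from 0.11 to -0.10 without replicate 3 of WT 24 months. In WT 24 months against WT 6 months, 5 probe sets instead of 8 were called when only these 2 groups were fitted, with a fold of 3, and by SAM, which called 5.8% of all probe sets there. Both the fit of 2 groups and SAM lost Gsta4 (adjusted p = 0.136 and 0.0811), Gstm6 (0.150 and 0.0822) and Gstm7 (0.184 and 0.118). KO 6 months against WT 6 months gave 3 with a fold of 3. SAM called 8 in KO 24 months tumor against WT 6 months, 1 higher and 7 lower, where it called 23.1% of all probe sets. Housekeeping centering and SAM each gave 1, Gstm6, in KO 24 months tumor against WT 24 months, where SAM called 0.58% of all. When each array was left out in turn, the counts were 6 to 8 in WT 24 months, 5 to 6 in KO 6 months and 5 to 7 in KO 24 months tumor against WT 6 months, 0 to 1 in KO 24 months tumor against WT 24 months, 0 to 0 against KO 6 months, and 5 to 6 for the interaction. The count of 1 came without replicate 1 of WT 24 months. The cause of these changes was not tested. Centering rested on 3 housekeeping genes and shifted the median of all probe sets by -0.12 in WT 24 months against WT 6 months and 0.14 in the interaction. In each comparison with WT 6 months, 1 of the 3 was itself called lower. The offsets of single arrays ran from -0.28 to 0.40, and replicate 3 of WT 24 months had the highest housekeeping mean (11.42). Calls gained by centering carry this limit. Gstt3 in WT 24 months passed with centering (adjusted p = 0.0138), without dim probe sets (0.0391), with the brightest probe set of each gene (0.0451) and with gene means (0.0490). Against WT 6 months, Gstt3 also passed in KO 6 months by the fit of 2 groups (adjusted p = 0.0261) and by SAM (q-value 0.0133). In KO 24 months tumor it passed by the fit of 2 groups (adjusted p = 0.0181), by SAM (q-value 0.00732) and with centering (adjusted p = 0.0442). SAM called 21.7% of all probe sets in KO 6 months. The replicate block gave 8, 5 and 6 in WT 24 months, in KO 6 months and among KO 24 months tumor arrays against WT 6 months and 5 in the interaction. It changed 1 call, Gstm7 in KO 24 months tumor against WT 6 months (adjusted p = 0.0457). Arrays with the same number correlated at -0.24 to 0.19 in their deviations, with 3 of 18 pairs above 0.1. Those with different numbers correlated at -0.17 to 0.29, with 6 of 36 pairs above 0.1, so no pairing by number was seen. The interaction was not run by SAM or in a fit of 2 groups. With 3 arrays a group, their number limits the precision.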
